A study of Mus musculus with 4 samples.

Results

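Fatty acid binding and lipid handling genes were examined in myeloid-derived suppressor cells (MDSCs) after knockdown or exogenous expression of the long noncoding RNA lnc-C/EBPβ, which the labels call lncMDSC. The 8 genes were Fabp3, Fabp4, Fabp5, Lpl, Pparg, Abca1, Abcg1 and Plin2, out of 18194 genes that the array annotation names. They were chosen by their part in lipid handling and by the differences already seen on these 4 arrays, Fabp3 among them. Their differences are therefore a description, with no test. All probe sets annotated to one of these symbols and to no other gene were taken, which gave 17 of 34958 such probe sets, and all 17 are reported.

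Marrow from C57BL/6 mice was transduced with lentivirus and kept for 4 days with GM-CSF and IL-6, which turns them into a mixed culture of neutrophil-like and monocyte-like MDSCs. There was 1 culture and 1 array in each group. The groups were kdLNC (lentivirus with an shRNA against the lncRNA), kdNC (lentivirus with a control shRNA, against luciferase per the methods), oeLNC (lentivirus for overexpression of the lncRNA) and oeNC (its control lentivirus). The level of the lncRNA was not analysed here, so these arrays give no check of its knockdown or overexpression. The labels do not say which shRNA sequence was used. No sorting of the cells is described. A lower value in such a bulk culture can be fewer cells of a type or less RNA per cell, and these cannot be told apart.

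Fatty acid binding proteins are small cytosolic carriers that hold long-chain fatty acids in a barrel-shaped pocket and take them to membranes, mitochondria, the nucleus and lipid droplets. Fatty acids can reach a macrophage from lipoproteins, whose triglyceride is cut by lipoprotein lipase, and are stored in droplets coated by perilipins. The nuclear receptor PPARγ is activated by fatty acids and turns on Fabp4, Cd36 and other lipid genes, and GM-CSF is a known inducer of Pparg in alveolar macrophages. Oxysterols activate the LXR receptors, which raise the cholesterol exporters Abca1 and Abcg1.

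RefSeq promoters, from 250 bases before to 50 after a start site, were held for 4 of the 8 genes (6 promoters, 3 of them of Pparg). Fabp4, Fabp5, Lpl and Abcg1 had no entry. The promoters of Abca1 and Fabp3 are shown because these genes had the largest differences on the arrays, both on chromosome 4 of GRCm38.p6. That of Abca1 is at chr4:53159846-53160145 on the minus strand, and that of Fabp3 at chr4:130308488-130308787 on the plus strand. In capitals in the Abca1 promoter are, from the 5′ end, an E-box (CACGTG), an LXR element on the reverse strand (GGTNA, then 5 bases, then GGTCA) and a TATAAA.
Abca1: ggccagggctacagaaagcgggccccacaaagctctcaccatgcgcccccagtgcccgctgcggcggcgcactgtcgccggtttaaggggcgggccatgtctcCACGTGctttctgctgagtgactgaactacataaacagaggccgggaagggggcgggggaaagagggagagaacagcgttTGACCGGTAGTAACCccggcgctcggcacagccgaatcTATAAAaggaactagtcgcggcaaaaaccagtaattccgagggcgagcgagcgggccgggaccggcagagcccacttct
Fabp3: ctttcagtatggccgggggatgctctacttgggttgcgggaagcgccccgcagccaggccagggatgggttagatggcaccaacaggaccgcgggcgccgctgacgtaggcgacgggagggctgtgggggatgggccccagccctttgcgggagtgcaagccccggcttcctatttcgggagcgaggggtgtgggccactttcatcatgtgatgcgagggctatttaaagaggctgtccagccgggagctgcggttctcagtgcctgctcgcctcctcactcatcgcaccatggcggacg

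In the Abca1 promoter the E-box lay at -147 to -142 from the start site, the LXR element at -67 to -53 and the TATAAA at -29 to -24. Searched on both strands, the LXR element was found in 68 of 32851 RefSeq promoters of the same length (0.207%), the E-box in 7.15% and the TATAAA in 13.6%. None of these letters, nor the nuclear receptor half-site AGGTCA (16.3% of promoters), nor the C/EBP motif TTNNGNAA (40.7%), was in the Fabp3 window. Plin2 held an E-box at -4 to 2 and a half-site at -218 to -213. A half-site was also in the first Pparg promoter (-28 to -23) and in the second (-9 to -4), which held a TATAAA on the reverse strand, and the third held the C/EBP motif 2 times. These matches are descriptions of letters, not of bound sites.

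Values are the log2 of the deposited probe set intensities, and levels are compared between arrays at the same probe set only. The median of all 45101 probe sets was 4.17 to 4.24 on the 4 arrays. Of the 17 probe sets, 10 were above the array median on all 4 arrays, 3 on some arrays and 4 on none (Pparg and 3 of Fabp4). All 6 measured markers of MDSCs, S100a8, S100a9 and Itgam among them, were above it on all 4 arrays. Ly6g and Ly6c1 had no probe set of their own in the annotation used here.

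**Figure D1:**
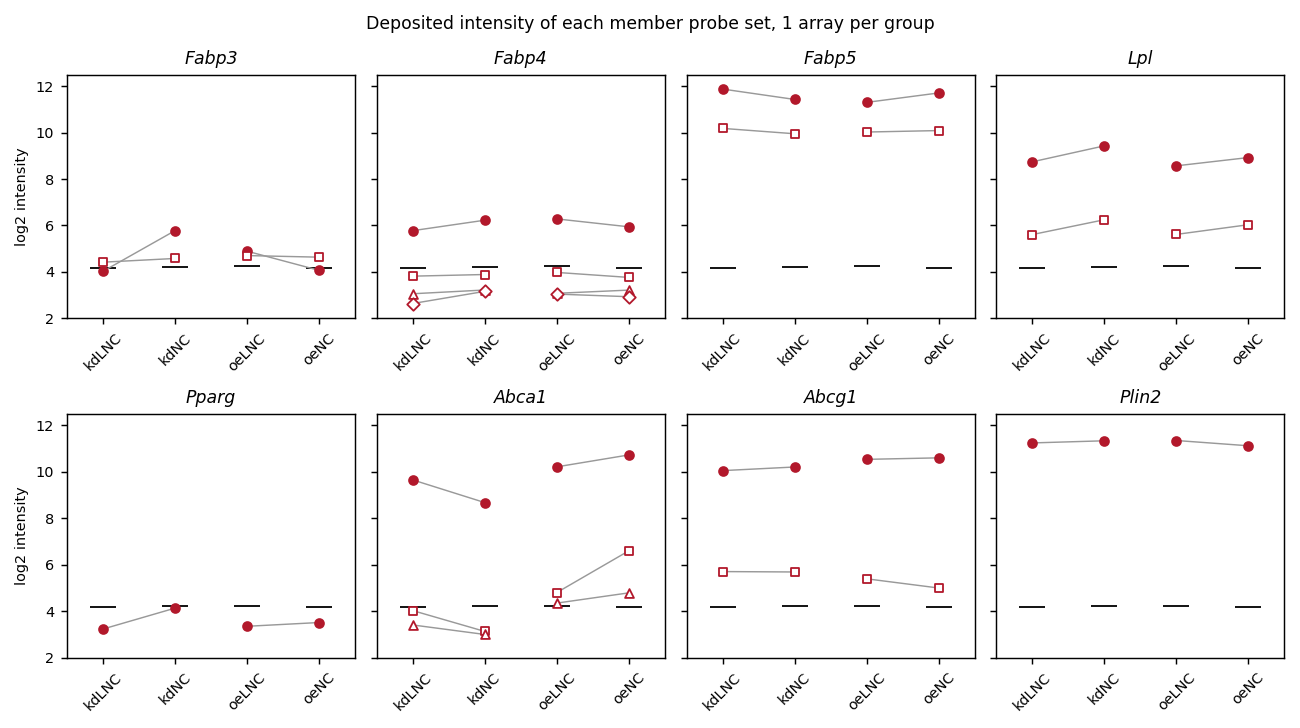
Log2 intensity (y axis) of each member probe set on the 4 arrays (x axis). Filled red points are the brightest probe set of a gene and open points its others, grey lines join the arrays of a pair, and black dashes are the array medians of 4.17 to 4.24. Fabp3 stands out on kdNC at its filled probe set, and the 3 Abca1 probe sets run lowest on kdNC and highest on oeNC.

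In the knockdown pair, Fabp3 was the member with the largest difference, lower in kdLNC than in kdNC, and Abca1 was the member most above its control. Of the 17 probe sets, 1 (Fabp3) was at least 2-fold lower in kdLNC, where 0.174% of all 34958 probe sets were, and 0 were at least 2-fold higher, where 0.461% were. The choice of members used these values, so nothing is read from the count. The median log2 difference (kdLNC minus kdNC) was -0.16 over the members and -0.04 over all probe sets. Single arrays give no replicate error. The spread set beside a difference below is the SD of the difference between the control arrays (oeNC minus kdNC) over the 500 probe sets nearest in level, which was 0.30 to 0.61 for the members. In it the vector, the culture and the array cannot be told apart. Of the 17 knockdown differences, 9 were smaller than 1 SD. The share of all probe sets within this spread was not computed, so nothing is read from that count.

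Fabp3 encodes the carrier known from heart and muscle. At its probe set 1416023_at the log2 intensity was 4.02 in kdLNC and 5.77 in kdNC, and 4.89 in oeLNC and 4.07 in oeNC. The kdNC array was thus the high one, and the other control array was close to kdLNC. The log2 difference was -1.75 on knockdown (spread 0.48), and 3 of 34958 probe sets were more negative. The intensities behind it were 16.3 in kdLNC and 54.7 in kdNC, and 29.7 in oeLNC and 16.7 in oeNC. In kdLNC and oeNC the probe set was below the array median, and how far these low values lie above background is unknown, so the size of the difference and its rank are uncertain. The log2 difference was 0.83 on overexpression, with 352 probe sets more positive, and -1.71 for oeNC minus kdNC. The knockdown and control differences share the kdNC array. With the mean of both controls in place of the paired control, the difference was -0.90 in kdLNC and -0.03 in oeLNC. The second probe set of Fabp3, 1444844_at, had 4.42 in kdLNC, 4.58 in kdNC, 4.70 in oeLNC and 4.63 in oeNC. Its differences were -0.16 on knockdown and 0.07 on overexpression, so the probe sets of Fabp3 disagree in size, and which transcripts each detects was not tested.

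Fabp4 encodes the carrier of adipocytes and macrophages. Its brightest probe set had a log2 intensity of 5.77 in kdLNC, 6.23 in kdNC, 6.28 in oeLNC and 5.94 in oeNC. The differences were -0.45 on knockdown and 0.34 on overexpression, both within the spread of 0.58. Its 3 other probe sets were below the array median on every array, at 2.64 to 3.98. All 4 were lower in kdLNC, by a log2 difference of -0.07 to -0.52, and 3 of the 4 were higher in oeLNC, with the exception at -0.14.

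Fabp5 encodes the carrier of epidermis, which is also abundant in macrophages. Both of its probe sets were far above the array median. The brighter had 11.87 in kdLNC, 11.43 in kdNC, 11.30 in oeLNC and 11.71 in oeNC. The log2 difference was 0.45 on knockdown and -0.41 on overexpression (spread 0.49). At its second probe set the values were 10.18 in kdLNC, 9.95 in kdNC, 10.02 in oeLNC and 10.09 in oeNC, which gave 0.23 and -0.06. Fabp5 thus differed in the direction opposite to Fabp3 and Fabp4 in the knockdown pair, by less than the spread at both probe sets. In the RefSeq annotation Fabp5 and Fabp4 are neighbours on chromosome 3, with the family genes Pmp2 and Fabp9 between them and Fabp12 next to Fabp4.

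**Figure D2:**
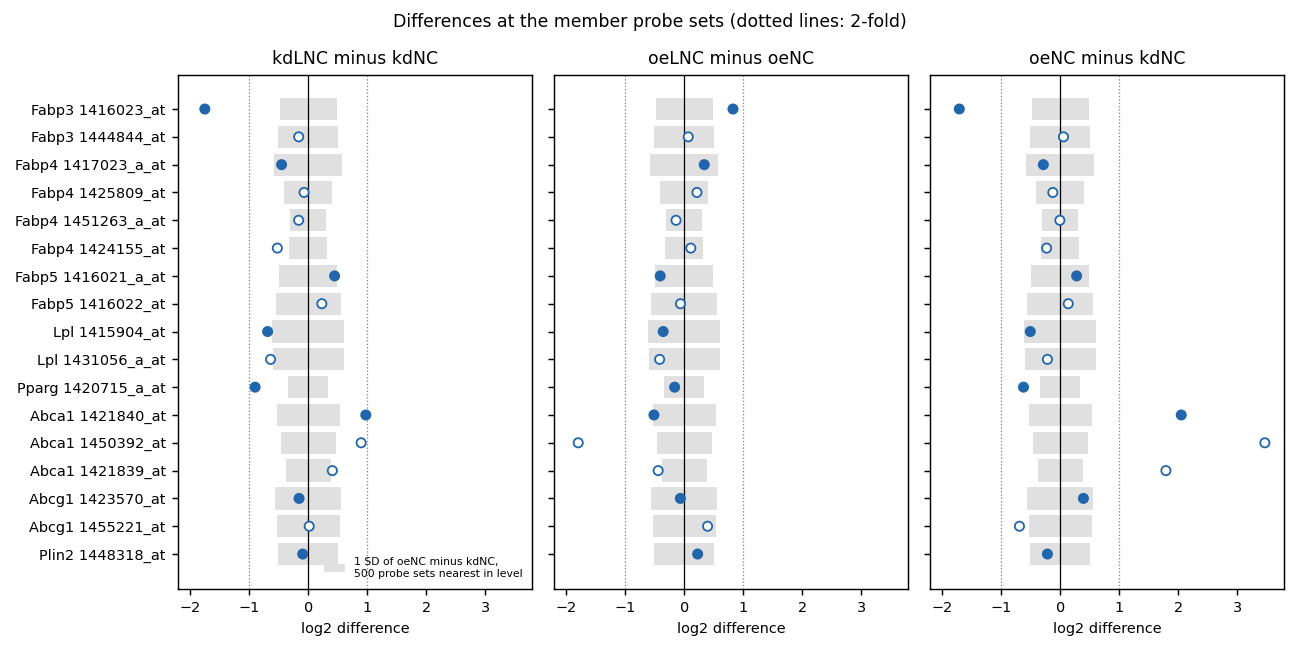
Log2 difference (x axis) at each of the 17 member probe sets (y axis) for the knockdown pair (kdLNC minus kdNC), the overexpression pair (oeLNC minus oeNC) and the controls (oeNC minus kdNC). Filled points are the brightest probe set of a gene, dotted lines mark 2-fold, and grey bars span 1 SD of oeNC minus kdNC at that level to either side of 0. Fabp3 lies at -1.75 in the left panel and at -1.71 in the right, and the Abca1 points lie at 1.79 to 3.47 in the right panel.

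Lpl encodes lipoprotein lipase, the enzyme that frees fatty acids from circulating triglyceride and that macrophages secrete. Its brightest probe set had 8.74 in kdLNC, 9.43 in kdNC, 8.57 in oeLNC and 8.92 in oeNC, and the other had 5.61, 6.25, 5.61 and 6.03 on the same arrays. The kdNC array was the highest at both. The log2 differences on knockdown were -0.69 and -0.64, against spreads of 0.61 and 0.60, and 282 and 393 of 34958 probe sets were more negative. On overexpression they were -0.36 and -0.42. With the mean of both controls they were -0.43 and -0.53 in kdLNC and -0.61 and -0.52 in oeLNC. Lpl was thus lower than the control in both lncRNA arrays under either control. Only the knockdown differences against the paired control were larger than the spread, and all the others lay within it.

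Pparg has 1 probe set, which was below the array median on every array. It had 3.23 in kdLNC, 4.13 in kdNC, 3.35 in oeLNC and 3.51 in oeNC. The kdNC array was again the high one. The log2 difference was -0.90 on knockdown (spread 0.34, with 93 probe sets more negative) and -0.16 on overexpression. With every intensity under 16 set to 16 the knockdown difference was -0.13. At this level a difference rests on intensities of 9.38 in kdLNC and 17.5 in kdNC, and how far these lie above background is unknown.

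Abca1 encodes the membrane transporter that loads cholesterol onto apolipoprotein A-I. Its brightest probe set had 9.65 in kdLNC, 8.68 in kdNC, 10.22 in oeLNC and 10.73 in oeNC. Probe set 1450392_at had 4.02, 3.13, 4.80 and 6.60 on the same arrays, and 1421839_at had 3.41, 2.996, 4.35 and 4.79. All 3 probe sets were lowest in kdNC, then kdLNC, then oeLNC, and highest in oeNC. The log2 differences on knockdown were 0.98 (spread 0.54), 0.90 and 0.41, and 170 and 235 of all probe sets were more positive than the first and the second. With every intensity under 16 set to 16, those of 1450392_at and 1421839_at were 0.02 and 0.00, against 0.98 at the brightest. On overexpression the differences were -0.51, -1.80 and -0.44, and 8 probe sets were more negative than the second.

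Between the control arrays, Abca1 differed by more than in either pair. The log2 difference (oeNC minus kdNC) was 2.05, 3.47 and 1.79 at its 3 probe sets, and 5 of 34958 probe sets were more positive than the second. With the floor of 16 those of 1450392_at and 1421839_at were 2.60 and 0.79. With the mean of both controls the 3 differences were -0.05, -0.84 and -0.49 in kdLNC and 0.51, -0.06 and 0.46 in oeLNC. The direction of Abca1 was thus turned at all 3 probe sets in kdLNC and at 2 of them in oeLNC. At its brightest probe set, the reading of Abca1 as higher in kdLNC and lower in oeLNC held against the paired control only.

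Abcg1 encodes the partner transporter that passes cholesterol to HDL. Its brightest probe set had 10.05 in kdLNC, 10.21 in kdNC, 10.54 in oeLNC and 10.60 in oeNC, with differences of -0.16 on knockdown and -0.06 on overexpression. The other had 5.70 in kdLNC, 5.69 in kdNC, 5.39 in oeLNC and 4.998 in oeNC, which gave 0.02 and 0.40. Between the control arrays the first was 0.39 and the second -0.69 (oeNC minus kdNC), so the probe sets of Abcg1 ran in opposite directions. Plin2, which coats lipid droplets in most cells, had 11.25 in kdLNC, 11.34 in kdNC, 11.35 in oeLNC and 11.12 in oeNC. Its differences were -0.09 on knockdown and 0.23 on overexpression, within the spread of 0.51.

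In the overexpression pair, 1 of the 17 probe sets (1450392_at of Abca1) was at least 2-fold lower in oeLNC, where 0.95% of all probe sets were, and 0 were at least 2-fold higher, where 0.303% were. The median log2 difference (oeLNC minus oeNC) was -0.06 over the members and 0.02 over all probe sets, and 14 of the 17 were smaller than 1 SD of the control difference. Between the control arrays, 3 of the 17 (all of Abca1) were at least 2-fold higher in oeNC, where 2.34% of all probe sets were, and 1 (Fabp3) at least 2-fold lower, where 3.04% were. The control difference was larger in size than the knockdown difference at 7 of the 17 probe sets and than the overexpression difference at 10. For these last counts and for the count within 1 SD, the shares over all probe sets were not computed, and nothing is read from them.

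Set side by side, 5 probe sets (3 of Abca1 and both of Fabp5) were above the control in kdLNC and below it in oeLNC. The reverse held for 6, both of Fabp3, 3 of Fabp4 and that of Plin2. Lower in both were 5, among them both of Lpl and that of Pparg, and higher in both was 1, of Abcg1. Of the 17 probe sets, 6 were highest on the kdNC array, namely both of Lpl, that of Pparg, 1 of Fabp3 and 2 of Fabp4. Over all 34958 probe sets, 41.7% were higher and 56.3% lower in kdLNC than in kdNC. In oeLNC against oeNC, 52.3% were higher and 46.2% lower. How common these joined patterns and array orders are over all probe sets was not computed, so nothing about the members is read from the counts.

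Marker genes of other cells moved with some of these arrays. The 5 measured eosinophil markers (of 7 listed) had a summed intensity of 1245 in kdLNC and 2328 in kdNC, and of 1091 in oeLNC and 1196 in oeNC, so kdNC was high there too. Epx, eosinophil peroxidase, had a log2 intensity of 7.63 in kdLNC, 8.75 in kdNC, 7.09 in oeLNC and 7.05 in oeNC. Siglecf of the same list did not have kdNC as its highest array. It had 6.27 in kdLNC, 6.82 in kdNC, 6.31 in oeLNC and 6.91 in oeNC. The 7 measured neutrophil markers (of 8) summed to 17805 in kdLNC, 25904 in kdNC, 26346 in oeLNC and 27999 in oeNC. This sum was lowest in kdLNC, but the genes did not all go that way. Their median knockdown difference was -1.07, and 5 of the 7 fell by a factor of 2 or more. Lcn2, the brightest of the list, and Mmp8 went the other way, with knockdown differences of 0.115 and 0.108. The 7 measured monocyte and macrophage markers (of 8) summed to 8067 in kdLNC, 8888 in kdNC, 12280 in oeLNC and 12484 in oeNC. Cd14 carried most of that sum's difference between the control arrays, with a log2 intensity of 12.66 in oeNC and 11.74 in kdNC, and the median control difference of the list was 0.18. In the array order of Abca1 (kdNC, kdLNC, oeLNC, oeNC) ran 2 of the 7, Mrc1 and F13a1, and the other 5 did not. Mrc1 was below the array median in kdLNC and kdNC. The part of these cells in the differences of Fabp3, Lpl, Pparg and Abca1 was not tested.

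Fabp4, Lpl, Pparg and Plin2 are also genes of adipocytes, and Fabp4 of capillary endothelium. The 8 measured adipocyte and stromal markers (of 9) summed to 110 in kdLNC, 120 in kdNC, 130 in oeLNC and 117 in oeNC. Their defining genes Adipoq and Lep were below the array median on all 4 arrays, at 2.75 to 3.34 and 1.90 to 2.51 on the log2 scale. The 6 endothelial markers summed to 180 in kdLNC, 230 in kdNC, 205 in oeLNC and 179 in oeNC. The 8 dendritic cell markers summed to 2107 in kdLNC, 1973 in kdNC, 1441 in oeLNC and 1637 in oeNC. H2-Ab1 and Cd74 carried most of that sum, with knockdown differences of 0.14 and 0.21. The median knockdown difference of the 5 above the array median was -0.22, so the sum and the median had opposite directions. The 5 measured platelet markers (of 6) summed to 594 in kdLNC, 444 in kdNC, 558 in oeLNC and 810 in oeNC.

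The wider lipid pathway was described with 1 value per gene, its brightest probe set, among genes above the array median on at least 1 array of the pair. Of 11505 such genes, 2.36% were at least 1.5-fold higher and 1.96% at least 1.5-fold lower in kdLNC. For the overexpression pair, 3.93% of 11869 genes were at least 1.5-fold higher and 5.38% at least 1.5-fold lower in oeLNC. Between the control arrays, 9.22% of 11723 were at least 1.5-fold higher and 12.2% at least 1.5-fold lower in oeNC. The median over all genes was -0.05 in the knockdown pair and -0.01 in the overexpression pair.

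Among 11 genes of lipid uptake and lipolysis in the knockdown pair, 1 was at least 1.5-fold lower, 1 higher and 9 lay between (median -0.09). The lower one was Mgll, monoacylglycerol lipase, which cuts the last fatty acid from glycerol. Its log2 intensity was 5.50 in kdLNC, 6.70 in kdNC, 6.53 in oeLNC and 6.75 in oeNC, so kdLNC was the low array and the controls differed by 0.06. The knockdown difference was -1.20, and -1.23 against the mean of both controls. Its other probe sets had -1.01, -0.82 and -0.19. The higher one was Cd36, the fatty acid translocase and a PPARγ target, with 7.33 in kdLNC, 6.63 in kdNC, 7.11 in oeLNC and 6.96 in oeNC. The knockdown difference of Cd36 was 0.70, and 0.78 and 0.10 at its other probe sets.

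In the overexpression pair, 1 of 13 genes of this list was at least 1.5-fold higher in oeLNC and 0 were lower (median -0.03). It was Gpihbp1, which encodes the protein that holds Lpl on the capillary wall, with 4.54 in oeLNC and 3.77 in oeNC, and 3.77 in kdLNC and 4.02 in kdNC. Its difference was 0.77, at levels near the array median. Only oeLNC had it above the median, so it was counted through the array where it was high.

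Of 10 genes of lipid droplets and storage in the knockdown pair, 1 was at least 1.5-fold higher and 1 lower (median -0.21). Acsl4, which activates arachidonic acid, had 8.01 in kdLNC, 7.12 in kdNC, 7.17 in oeLNC and 7.57 in oeNC. Its knockdown difference was 0.89 at this probe set and -0.03 and 0.06 at the others. Dgat1, which makes triglyceride, was lower with a difference of -0.61, and -0.17 at its second probe set. The control arrays differed by 1.79 at the first, and against their mean the difference was -1.51. Abhd5, the co-activator of adipose triglyceride lipase, had -0.57, and 0.04 and 0.15 at its others. On overexpression 0 of the 10 passed 1.5-fold in either direction (median -0.07).

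Of 10 genes of cholesterol efflux and other LXR targets, 0 passed 1.5-fold in either direction in either pair, with medians of -0.21 on knockdown and -0.06 on overexpression. Apoe, the apolipoprotein that macrophages secrete, had differences of -0.45 and -0.50, and Apoc2, the cofactor of Lpl, of 0.40 and -0.40 in these pairs. Against the mean of both controls those of Apoc2 were 0.07 and -0.07. Nceh1, which hydrolyses cholesterol esters, had -0.42 on knockdown and -0.03 on overexpression. None of the 5 genes above the median in the list of lipid-sensing nuclear receptors and their coactivators passed either. Ppard had 0.13 on knockdown and -0.36 on overexpression, Nr1h3, which encodes LXRα, 0.22 and -0.13, and the coactivator gene Ppargc1b -0.09 and -0.25.

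None of 8 genes of fatty acid oxidation passed 1.5-fold in either pair, with medians of -0.04 on knockdown and -0.05 on overexpression. Cpt1a, the gate of fatty acid entry into mitochondria, had a knockdown difference of -0.56 at its brightest probe set, and 0.14 and 0.38 at the others. On overexpression these 3 probe sets of Cpt1a had -0.35, -0.92 and -0.65. The dehydrogenase genes Acadl and Acadm had -0.38 and -0.35 on knockdown. Among the other genes of the binding protein family, 2 of 6 were above the median on at least 1 array of each pair. Fabp7 had differences of 0.50 on knockdown and 0.09 on overexpression, and Fabp12 had 0.18 and 0.00. In the knockdown pair both passed through kdLNC only, the array where they were higher. There Fabp7 had 4.552 in kdLNC and 4.055 in kdNC, and Fabp12 4.291 and 4.111.

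**Figure D3:**
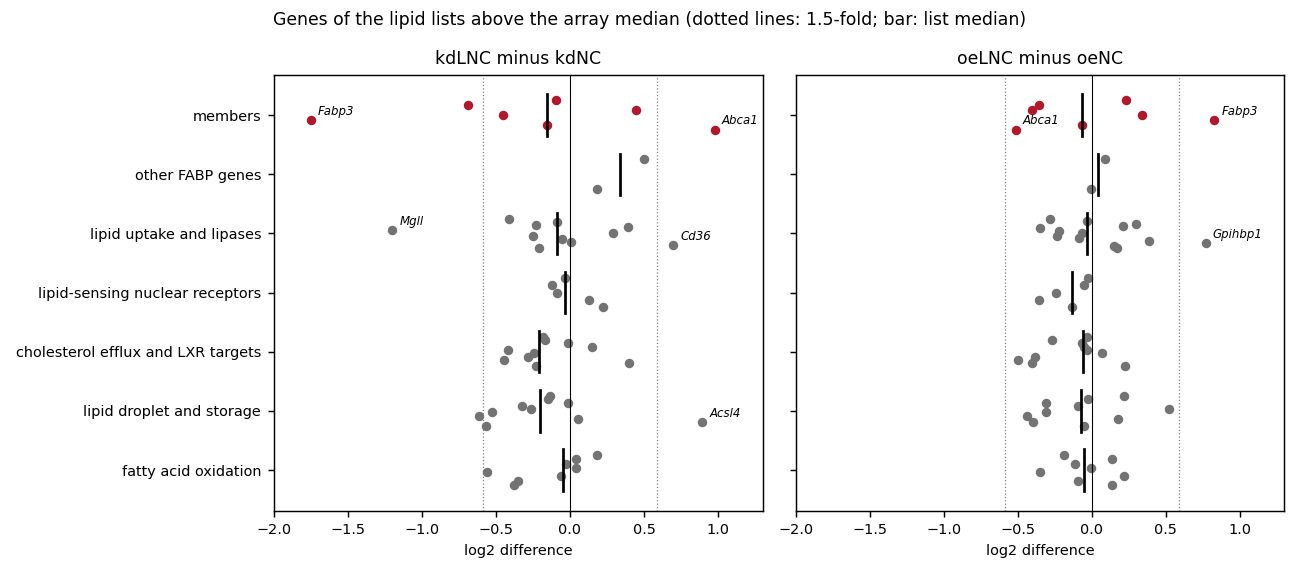
Log2 difference (x axis) of each gene above the array median, by its brightest probe set, in the member list (red; Pparg is below the median and not drawn) and 6 further lipid lists (y axis), for kdLNC minus kdNC and oeLNC minus oeNC. Black bars are list medians and dotted lines mark 1.5-fold. Mgll at -1.20 is the far point outside the member list in the left panel, and Fabp3 lies at -1.75 there and at 0.83 in the right panel.

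Other genes were ranked by how closely their log2 values, centred on their own mean, followed a member over the 4 arrays. The measure was the Euclidean distance over 12091 other genes above the array median on at least 1 array. The nearest genes are given for the members that ranged over at least 1 log2 unit. Nearest to Fabp3 were Gprc5b (distance 0.33), the interferon-induced chemokine gene Cxcl11 (0.35) and Asprv1 (0.44). Gprc5b was above the array median on kdNC only, the array where Fabp3 was also high. It was thus a candidate only through that array, so nothing is read from its first place. Cxcl11 had 8.36 in kdLNC, 9.86 in kdNC, 8.73 in oeLNC and 8.13 in oeNC, with kdNC high as for Fabp3. Nearest to Abca1 were Smad5 (0.34), Errfi1 (0.37) and Ptgs2, cyclooxygenase 2 (0.38). Ptgs2 had 11.11 in kdLNC, 9.94 in kdNC, 11.41 in oeLNC and 12.41 in oeNC, again lowest in kdNC and highest in oeNC. With 4 arrays such a likeness is a description only.

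**Figure D4:**
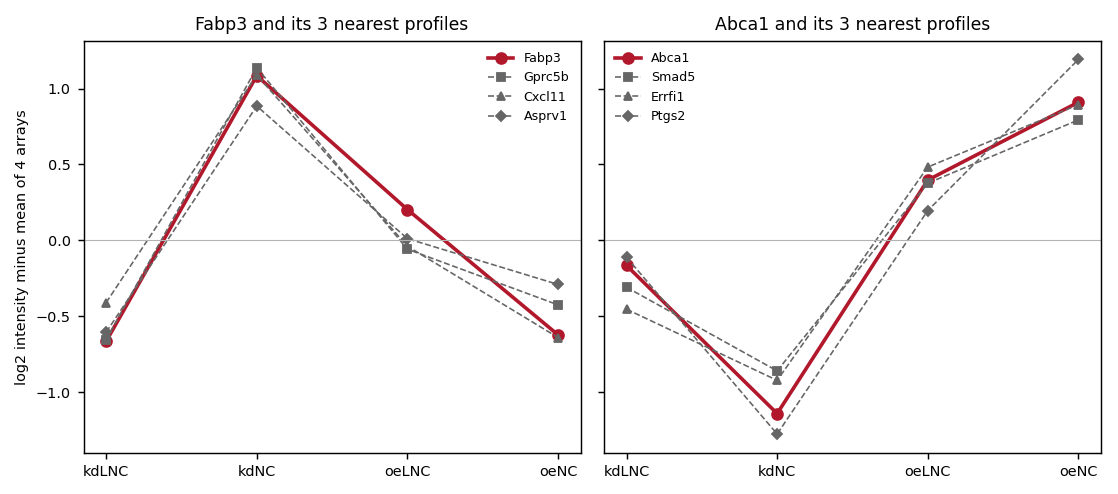
Log2 intensity minus the mean of the 4 arrays (y axis) on each array (x axis) for Fabp3 and Abca1 (red) and for the 3 genes nearest to each (grey). The Fabp3 set peaks on kdNC, and the Abca1 set is lowest on kdNC and highest on oeNC.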

How the data were processed

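Probe set intensities of 4 Affymetrix GeneChip mouse genome arrays, 1 per group, were taken as deposited. The authors had background-corrected, normalized and summarised these intensity values on a linear scale, and the submitters' processing notes name RMA, with version and settings not given in the sources used here. The intensities ran from 1.33 to 12309. Genes came from the platform annotation, in which 34958 probe sets had 1 symbol and were used. Another 932 had several symbols, and 9211 had none. Differences of log2 values were computed with Python 3.11.15, numpy 2.4.6, pandas 2.3.3 and statsmodels 0.14.6. Figures were drawn in matplotlib 3.10.9. Limma, named in the methods, could not be fitted with 1 array per group, so there are no p-values, and precision is limited by the number of arrays.

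The members and lists were chosen with earlier results of these data known. Genes named outside the members were up to 3 per lipid list with the largest difference in either pair, and the 3 nearest profiles of a member. Up to 3 per marker list were also named, some after their values were seen, and Hadhb for a probe set other than its brightest. Besides the members, 6 lipid lists and 8 marker lists were used. Each value was also computed after quantile normalization, centring on the array median or loess within a pair, against the mean of both controls, with a floor of 16, without probe sets whose names mark possible matches to more than 1 transcript, with 1 value per gene, with a filter at the 50th percentile, and at thresholds of 1.5-fold and 3-fold. The calculation was tested on simulated arrays. Promoters are from RefSeq, GRCm38.p6.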

Additional observations from a re-analysis of the deposited data

How the results depend on the processing

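No paired analysis was possible because there was 1 array per group, and no array could be left out. Of 238 differences of single member probe sets under 5 alternatives, 223 moved by less than the spread between the control arrays at that level and 15 by more, 8 against the mean of both controls and 7 with the floor of 16. A sign change was seen in 15, 10 against the mean of both controls. The median over the members was counted as moved past a change of 0.1, a limit set by choice. With the mean of both controls, 0 probe sets were at least 2-fold lower in kdLNC and 0 in oeLNC, and the knockdown median was -0.31. By construction, this control takes part of oeNC minus kdNC from one pair and adds it to the other. For the next changes, causes beyond the values given were not tested. After quantile normalization 1 probe set, the brightest of Abca1, was at least 2-fold higher in kdLNC, at 1.008 against 0.976 before. With the floor the median was 0.00 on knockdown and 0.00 between the controls. A probe set under 16 in both arrays of a pair then has a difference of 0.00 by construction. With the brightest probe set per gene, the knockdown median was -0.30 and 0 genes were at least 2-fold lower in oeLNC. Abca1 1450392_at is not the brightest of its gene and is left out there. With the same choice, oeNC minus kdNC had 1 gene at least 2-fold higher and a median of -0.25. With the mean of probe sets per gene, the number at least 2-fold lower was 0 in kdLNC, 0 in oeLNC and 0 in oeNC against kdNC, where 1 was higher. The filter gave a control median of 0.056. At 1.5-fold, 2 were higher and 4 lower in kdLNC, 1 was higher in oeLNC and 3 were lower in oeNC than in kdNC. The shares of all probe sets at 1.5-fold were not computed, so nothing is read from these counts. How far signals lie above background is unknown, which limits Pparg, Fabp3 and the dim probe sets of Fabp4 and Abca1 most. The floor is just under the Fabp3 values of 16.3 in kdLNC and 16.7 in oeNC, so it could not move them.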

Other observations

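Some lipid droplet and storage genes had large differences between the control arrays. Of 10 such genes above the array median, 4 were at least 1.5-fold higher in oeNC than in kdNC, where 9.22% of all genes were, and 0 were at least 1.5-fold lower, where 12.2% were. The list median was 0.17, and 5 of the 10 had a difference below 0. These counts used the brightest probe set of each gene. At another probe set Abhd5 had 4.55 in oeNC and 6.44 in kdNC, a difference of -1.89, against -0.32 at its brightest. Other probe sets of Dgat1, Dgat2 and Acsl4 went the opposite way, with 1.03, 1.67 and 1.11. The gene Hilpda, an inhibitor of adipose triglyceride lipase that is induced by hypoxia and lipid, had a log2 intensity of 10.35 in oeNC and 8.36 in kdNC, with 10.03 in oeLNC and 8.34 in kdLNC. Dgat1 had 10.25 in oeNC and 8.46 in kdNC, with 9.81 in oeLNC and 7.85 in kdLNC. G0s2, another inhibitor of that lipase, had 9.59 in oeNC and 8.62 in kdNC, with 9.50 in oeLNC and 8.30 in kdLNC. At these 3 genes the overexpression arrays were both above the knockdown arrays. Hilpda and G0s2 were named after their values were seen, and vector, culture and array cannot be told apart here.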
